A study of Mus musculus with 6 samples.

Results

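Complement genes were examined in 6 expression arrays of eGFP-positive cells sorted from mouse somatosensory grey matter. The set held 9 genes: the C1q chains C1qa, C1qb and C1qc, the anaphylatoxin receptors C3ar1 and C5ar1, the component genes C4b and Cfb, and the regulators Serping1 and Cd59a. The members were all probe sets that the platform annotation gives to exactly 1 of these symbols, 14 of the 45037 probe sets tested. They covered 8 of the 9 genes. C1qb and C3ar1 had 3 probe sets each, C5ar1 and Cd59a had 2 each, and C1qa, C1qc, Serping1 and Cfb had 1 each. C4b had none, because its probe set is annotated to C4a as well. Probe sets of 1 gene share a transcript and are not replicates of each other.

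For the 3 reactive samples the donors were GFAP-eGFP mice, genotype TgN(hGFAP-EGFP) GFEA, whose eGFP is under a human GFAP promoter. They received a stab wound to a depth of 0.7 mm, and cells were collected 5 days later. The 3 non-reactive samples came from the matching region of uninjured mice of another line, Tg(Aldh1l1-eGFP)OFC789Gsat. Both lines were on the FVB/N background and aged 2 to 3 months, their sex was not determined, and each sample pooled the cells of about 15 animals. Reactive replicate 3 stood apart: on the second principal component of all probe sets it lay at -99.3, against 78 and 57.1 for the other reactive arrays and -22.3 to 0.5 for the non-reactive arrays. It alone was high for some markers of vessel and blood cells, such as the endothelial Cldn5 (9.36 beside 5.45 and 5.53). The macrophage gene Chil3 was another (8.33 beside 3.53 and 3.19). Other such markers were not high in that array. It was the lowest reactive array for the endothelial Slco1a4 (4.67 beside 5.51 and 4.84) and the monocyte marker Plac8 (7.58 beside 7.80 and 7.63). Injury and reporter line coincided in every array and cannot be told apart. All values are on the log2 scale, as the authors' RMA (robust multi-array average) gave them, and differences are reactive minus non-reactive. As a mark for weak signal, the overall median of 4.74 is used: the median, over all probe sets, of the mean of the 6 arrays.

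Complement is a cascade of plasma and tissue proteins that marks targets for removal. C1q, built from the chains A, B and C, binds the target and starts the classical pathway through C4 and C3. Cleavage of C3 and C5 releases small peptides, the anaphylatoxins, which act through receptors on leukocytes and microglia. Inhibitors in plasma and on cell membranes limit each step. In the brain, microglia are the main source of C1q, and complement is known for its part in the removal of synapses.

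In the RefSeq gene table C1qb, C1qc and C1qa lie next to each other on chromosome 4, with no other protein-coding gene between them. Cfb lies beside C2 on chromosome 17, which also carries C4b. Sequence upstream of the start site was at hand for C1qb, C1qc, C3ar1, C5ar1 and Cd59a. The 250 bases before the start are shown for C1qb, C1qc and C3ar1, since these are the genes among the 5 with a probe set that rose. They are from RefSeq, build GRCm38.p6, minus strand, 5′ to 3′, at chr4:136886201-136886450 for C1qb, chr4:136892915-136893164 for C1qc and chr6:122856158-122856407 for C3ar1. Capitals mark the letters GAGGAA, read on either strand, the core of the sites bound by PU.1, a transcription factor of myeloid cells.
C1qb: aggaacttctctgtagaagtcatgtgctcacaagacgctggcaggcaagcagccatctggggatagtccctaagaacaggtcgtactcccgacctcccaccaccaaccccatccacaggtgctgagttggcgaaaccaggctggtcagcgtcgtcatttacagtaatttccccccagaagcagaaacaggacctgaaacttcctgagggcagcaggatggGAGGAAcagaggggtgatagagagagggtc
C1qc: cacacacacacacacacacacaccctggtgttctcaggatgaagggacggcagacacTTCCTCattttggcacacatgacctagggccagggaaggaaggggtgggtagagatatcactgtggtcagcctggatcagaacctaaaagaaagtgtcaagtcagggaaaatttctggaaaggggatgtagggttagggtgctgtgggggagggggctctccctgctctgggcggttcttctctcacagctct
C3ar1: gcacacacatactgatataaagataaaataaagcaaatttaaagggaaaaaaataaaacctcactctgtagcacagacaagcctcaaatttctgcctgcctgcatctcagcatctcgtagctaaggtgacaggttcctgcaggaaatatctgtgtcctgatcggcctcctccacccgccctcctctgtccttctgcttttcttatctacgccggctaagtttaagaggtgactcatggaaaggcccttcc
GAGGAA occurred once in C1qb, from base -30 to -25 before the start, and once in C1qc, on the opposite strand from -193 to -188. It was not found in the C3ar1 or C5ar1 window and occurred once in that of Cd59a. Of 32851 promoter windows of this length, 23.3% held it on either strand, so such a match is common. TTCNNNGAA, the form of STAT sites, was in 7.02% of all windows and in none of the 5. A match describes the letters and does not show a bound site, and a missing match says only that these letters are not in the window.

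Of the 14 complement probe sets, 4 rose and none fell in the reactive arrays (limma, Benjamini-Hochberg adjusted p at most 0.05). Among all 45037 probe sets 0.85% passed the test in either direction, 0.266% by rising and 0.584% by falling. The 4 were C1qa, C1qc, 1 of 3 probe sets of C1qb and 1 of 3 of C3ar1. Without reactive replicate 1 or 3 only C1qa passed, and without reactive replicate 2 C1qa and C3ar1 1419482_at did. None of the 14 passed without non-reactive replicate 1, 2 or 3. Among all 45037 probe sets, 57, 173 and 166 passed without reactive replicates 1, 2 and 3. Leaving out non-reactive replicates 1, 2 and 3 gave 1, 1 and 4, so nearly all calls of the series were lost there. The median log2 difference of the 14 was 1.46, against 0.10 over all probe sets. Every reactive array lay above every non-reactive array in 8 of the 14, against 12.8% of all probe sets. Without multiple-testing correction 9 of the 14 had p under 0.05, and 5963 of 45037 did so overall. The summed log2 level of 21 microglia and macrophage markers was also higher, at 171.1 to 177.2 in reactive and 140.1 to 144.6 in non-reactive arrays, and the part of these cells in the complement differences was not tested. In bulk samples more cells of a type and more RNA per cell cannot be told apart.

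**Figure D1:**
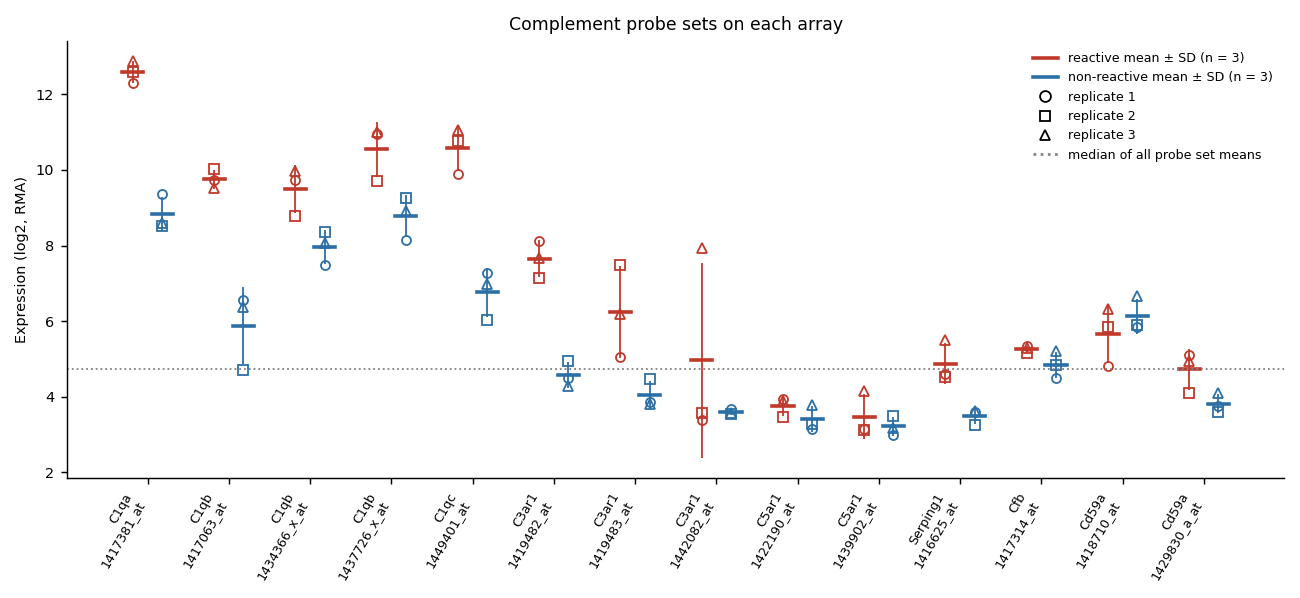
Expression (log2, RMA) of the 14 complement probe sets on each array, reactive left of non-reactive in each pair, with the mean and SD of 3 arrays and the overall median of 4.74 as a dotted line. The reactive points of C1qa lie between 12.29 and 12.90, all above its non-reactive points, while both C5ar1 probe sets lie below the dotted line on every array.

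C1qa encodes the A chain of C1q. It measured 12.29, 12.59 and 12.90 in the reactive arrays, against 9.35, 8.53 and 8.61 in the non-reactive arrays. The groups did not overlap, and the reactive arrays differed less among themselves than the distance between the groups. C1qa rose 13.6-fold (log2 difference 3.76, SE 0.30, 95% interval 3.05 to 4.48, limma adjusted p = 0.017). In the non-reactive arrays it was already far above the overall median of 4.74. The call held without any 1 of the reactive arrays, with a limma adjusted p of 0.0494, 0.0378 and 0.0412 without replicates 1, 2 and 3. It was lost without non-reactive replicate 1 (0.0519), 2 (0.0669) or 3 (0.0654), while the difference stayed between 3.61 and 4.03.

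C1qc, the C chain, measured 9.89, 10.77 and 11.06 in the reactive arrays, against 7.26, 6.03 and 6.99 in the non-reactive arrays. No array of either group reached the other group's range. C1qc rose 14.1-fold (log2 difference 3.81, SE 0.43, limma adjusted p = 0.0265). Its call was lost whenever 1 array was left out: the limma adjusted p was 0.0511, 0.0621 and 0.0551 without reactive replicates 1, 2 and 3, and 0.0872, 0.0856 and 0.0937 without non-reactive replicates 1, 2 and 3. The difference stayed between 3.45 and 4.16.

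C1qb, the B chain, was read by 3 probe sets that gave differences of unequal size. Probe set 1417063_at measured 9.74, 10.01 and 9.52 in the reactive arrays, against 6.55, 4.71 and 6.38 in the non-reactive arrays. Non-reactive replicate 2 was the lowest of the 6 here, and the SD of that group was 1.01. By this probe set C1qb rose 14.7-fold (log2 difference 3.88, SE 0.50, limma adjusted p = 0.0352). This call too was lost whenever 1 array was left out, with adjusted p of 0.0882, 0.0775 and 0.0635 without reactive replicates 1, 2 and 3 and 0.0893, 0.0634 and 0.0973 without non-reactive replicates 1, 2 and 3. The difference ran from 3.29, without non-reactive replicate 2, to 4.21.

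The other C1qb probe sets carry the suffix _x_at, which marks probes that may also read other transcripts. Probe set 1437726_x_at measured 10.94, 9.70 and 11.00 in the reactive arrays, against 8.16, 9.25 and 8.92 in the non-reactive arrays. Probe set 1434366_x_at measured 9.74, 8.79 and 9.98 in the reactive arrays, against 7.48, 8.37 and 8.06 in the non-reactive arrays. In both, reactive replicate 2 was the lowest of its group and non-reactive replicate 2 the highest, the reverse of what 1417063_at gave for these arrays. The groups did not overlap, but the log2 differences of 1.77 (SE 0.45) and 1.53 (SE 0.39) did not pass (limma adjusted p = 0.16 and 0.161). In a separate fit of gene averages, the mean of the 3 probe sets of C1qb rose by 2.39 on the log2 scale (limma adjusted p = 0.0192). Taken as a gene by its probe set with the highest mean, 1437726_x_at, C1qb did not pass.

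**Figure D2:**
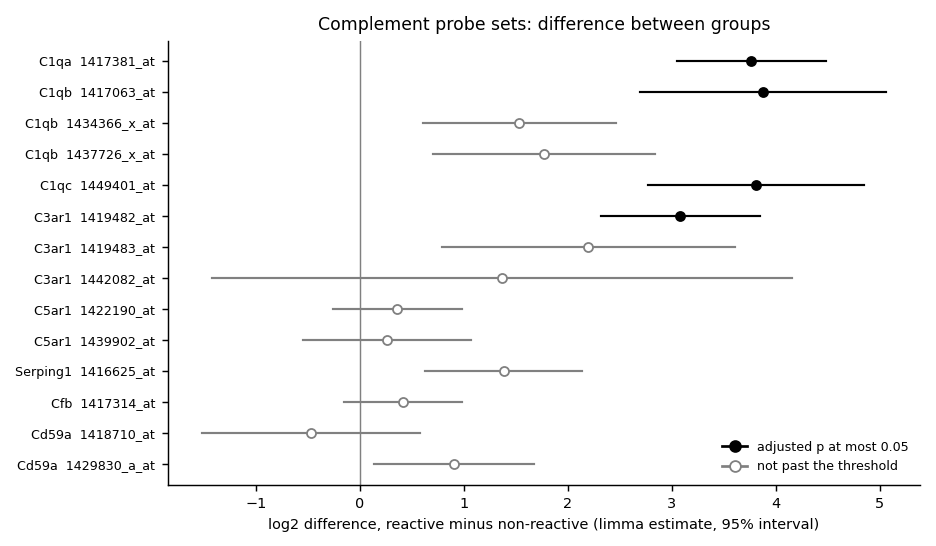
Log2 difference, reactive minus non-reactive, of each complement probe set, with the limma estimate as a point and its 95% interval as a line. The 4 filled points, C1qa, C1qb 1417063_at, C1qc and C3ar1 1419482_at, lie between 3.08 and 3.88, and 1 point, Cd59a 1418710_at, lies below 0.

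C3ar1 encodes the receptor of the C3a peptide, which is found on microglia and other myeloid cells. Its probe set 1419482_at measured 8.13, 7.14 and 7.68 in the reactive arrays, against 4.49, 4.95 and 4.27 in the non-reactive arrays. The groups did not overlap. It rose 8.46-fold (log2 difference 3.08, SE 0.32, limma adjusted p = 0.0234). The non-reactive mean of 4.57 was below the overall median of 4.74, which leaves the size of the rise uncertain. The call held without reactive replicate 2 (0.0371) and was lost without reactive replicate 1 (0.0528) or 3 (0.0512) and without non-reactive replicate 1 (0.0911), 2 (0.0783) or 3 (0.0853).

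Probe set 1419483_at of C3ar1 measured 5.05, 7.48 and 6.20 in the reactive arrays, against 3.86, 4.46 and 3.81 in the non-reactive arrays. All reactive arrays were again the higher, but they were spread from 5.05 to 7.48, and the difference of 2.20 (SE 0.59) did not pass (limma adjusted p = 0.187). Its non-reactive mean of 4.04 was below the overall median, as was the 3.59 of the next probe set, and the sizes of both differences are uncertain. Probe set 1442082_at measured 3.37, 3.56 and 7.94 in the reactive arrays, against 3.66, 3.54 and 3.57 in the non-reactive arrays. Here reactive replicate 3 alone was high and the other reactive arrays were within or below the non-reactive range. Its difference of 1.36 (SE 1.17, limma adjusted p = 0.64) was -0.13 without that array. With the mean of its 3 probe sets C3ar1 differed by 2.21 (adjusted p = 0.0737), which did not pass.

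C5ar1 encodes the receptor of C5a, a chemoattractant peptide for neutrophils and monocytes. Probe set 1422190_at measured 3.92, 3.46 and 3.88 in the reactive arrays, against 3.13, 3.27 and 3.78 in the non-reactive arrays. Probe set 1439902_at measured 3.13, 3.12 and 4.16 in the reactive arrays, against 2.98, 3.48 and 3.18 in the non-reactive arrays. In both the groups overlapped, and every array lay below the overall median of 4.74. The log2 differences were 0.36 (95% interval -0.26 to 0.98) and 0.26 (95% interval -0.55 to 1.06), with limma adjusted p of 0.584 and 0.759. At signals this low the size of a difference in C5ar1 is uncertain.

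Serping1 encodes the C1 inhibitor, a serpin that inactivates the proteases C1r and C1s. It measured 4.59, 4.52 and 5.51 in the reactive arrays, against 3.59, 3.24 and 3.62 in the non-reactive arrays. The reactive arrays were all the higher, with replicate 3 the highest by almost a full log2 unit. The difference of 1.38 (SE 0.32, 95% interval 0.63 to 2.14) did not pass (limma adjusted p = 0.127), and it was 1.07 without that array (adjusted p = 0.136). The non-reactive mean of 3.49 was below the overall median, which leaves this size uncertain.

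Cfb encodes factor B, the protease component of the alternative pathway convertase. It measured 5.33, 5.16 and 5.28 in the reactive arrays, against 4.50, 4.84 and 5.20 in the non-reactive arrays. The groups overlapped, as non-reactive replicate 3 exceeded reactive replicate 2. The difference of 0.41 (SE 0.24, 95% interval -0.15 to 0.98) did not pass (limma adjusted p = 0.503).

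Cd59a encodes a membrane protein that blocks the last step of the membrane attack complex. Its probe set 1418710_at measured 4.81, 5.84 and 6.32 in the reactive arrays, against 5.83, 5.89 and 6.67 in the non-reactive arrays. It was the only one of the 14 with a log2 difference below 0, at -0.47 (SE 0.44, limma adjusted p = 0.667), and the groups overlapped. Probe set 1429830_a_at measured 5.11, 4.09 and 4.96 in the reactive arrays, against 3.76, 3.60 and 4.09 in the non-reactive arrays. The groups met at 4.09, and its difference of 0.90 (SE 0.32, limma adjusted p = 0.309) had the opposite sign and did not pass either. Both of its group means, 4.72 and 3.82, were below the overall median. With the mean of both probe sets the sign turned to 0.21 (adjusted p = 0.738), so no direction can be given for Cd59a.

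The probe set annotated to both C4a and C4b, near-identical component genes, was not counted among the 14. It measured 9.03, 9.43 and 11.09 in the reactive arrays, against 6.73, 7.25 and 7.94 in the non-reactive arrays. The groups did not overlap, and the difference of 2.54 (SE 0.58) did not pass (limma adjusted p = 0.128). Which of the genes it reads is uncertain.

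Other genes of the cascade were taken from a list of 47, of which 39 were measured, each by its probe set with the highest mean. None rose and 1 fell (limma), against 0.39% of 18193 genes that rose and 0.561% that fell. At an unadjusted p under 0.05 there were 4 of the 39 (10.3%), against 2730 of all 18193 genes (15%). Their median log2 difference was 0.15, against 0.12 over all genes. In 22 of the 39 both group means were below 4.74. The others of the list were not analysed here.

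Clusterin, encoded by Clu and abundant in astrocytes, binds the terminal complex and keeps it from membranes. It measured 12.25, 11.88 and 11.47 in the reactive arrays, against 13.93, 13.68 and 13.67 in the non-reactive arrays. All reactive arrays were lower, and Clu fell by 1.89 on the log2 scale (SE 0.25, limma adjusted p = 0.0387). Its 3 other probe sets also passed, with differences of -2.38, -1.74 and -1.91. The call was lost whenever 1 array was left out, with a limma adjusted p of 0.0575, 0.0796 and 0.0617 without reactive replicates 1, 2 and 3 and 0.134, 0.137 and 0.122 without non-reactive replicates 1, 2 and 3.

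Of 12 measured genes of the classical and lectin pathways none passed. Masp1, a protease of the lectin pathway, measured 5.89, 6.05 and 7.41 in the reactive arrays, against 8.01, 9.02 and 8.90 in the non-reactive arrays. The groups did not overlap, and the difference of -2.19 (SE 0.48) did not pass (limma adjusted p = 0.116). Its 4 other probe sets differed by -0.82, 0.07, 0.33 and 0.79. By their probe sets with the highest mean, the other 11 genes lay between 0.01 for Mbl2 and 0.55 for Fcna. Among them were the C1 proteases C1ra at 0.18 and C1s1 at 0.15, both with means below 4.74 in each group. The other probe set of Colec11 differed by 1.84 (SE 1.10, limma adjusted p = 0.52), with reactive replicate 1 alone high (7.31 beside 3.37 and 2.85).

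Cfp, properdin, which stabilises the alternative pathway convertase, differed by -1.97 (SE 0.69, limma adjusted p = 0.304), and its other probe set by 1.21. All 6 measured terminal pathway genes had means below 4.74 in both groups, with differences between 0.11 and 0.43 and none past the test. Of 8 membrane regulators none passed. Among them Cr1l, which encodes the rodent inhibitor Crry, measured 7.79, 7.75 and 8.30 in the reactive arrays, against 7.15, 6.53 and 6.96 in the non-reactive arrays. Its groups did not overlap, and the difference of 1.07 (SE 0.26) did not pass (limma adjusted p = 0.152). The other probe sets of Cr1l differed by -0.02 and 0.37, with overlapping groups and means below 4.74 in both groups. Of 7 receptors and binding proteins none passed. Itgb2, the β chain of complement receptors 3 and 4, differed by 1.40 (SE 0.64), while their α chains Itgam and Itgax differed by 0.54 and 0.06.

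**Figure D3:**
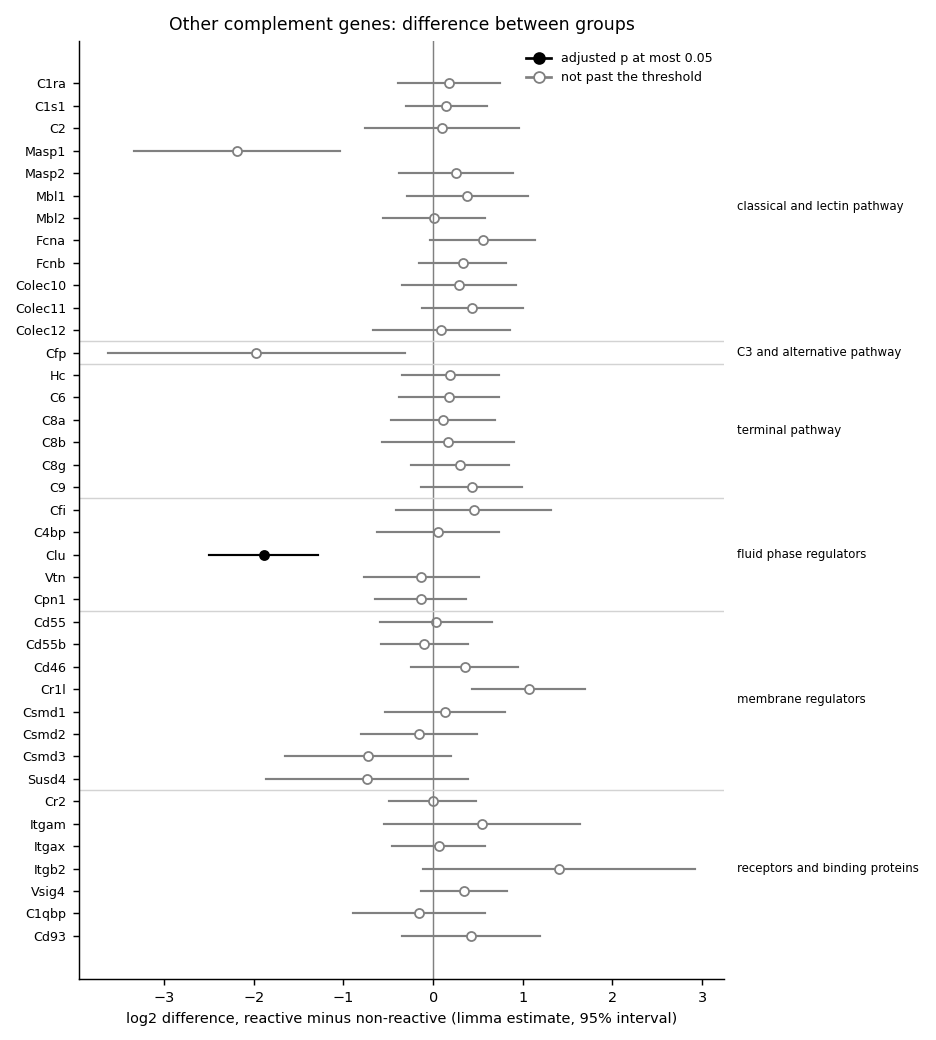
Log2 difference, reactive minus non-reactive, of the 39 other complement genes, ordered by their place in the cascade, with the limma estimate as a point and its 95% interval as a line. Clu at -1.89 is the single filled point, and 28 of the 39 points lie above 0.

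The arrays held transcripts of other cells than astrocytes. Among 21 measured markers of microglia and macrophages, limma called 4, all of them higher in the reactive arrays, against 0.951% of all genes called in either direction. They were Cd68, a lysosomal protein, by 4.12, Fcer1g, an Fc receptor chain, by 2.73, Tyrobp, an adaptor of myeloid receptors, by 2.59, and Trem2, a microglial receptor, by 2.24 on the log2 scale. Itgam, Gpr34 and Mrc1 had means below 4.74 in both groups. Other markers were bright in both groups. Csf1r, a receptor all microglia carry, averaged 12.25 ± 0.33 in reactive and 11.83 ± 0.20 in non-reactive arrays (SD, n = 3). Cx3cr1, a receptor of resident microglia, averaged 9.73 ± 0.28 in reactive and 9.70 ± 0.51 in non-reactive arrays, a difference of 0.04 (limma adjusted p = 0.97).

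The marker differences ran from 0.04 to 4.12 with a median of 1.30. Of the 21 markers, 20 had a smaller difference than C1qa, C1qc and C1qb 1417063_at, and 19 a smaller one than C3ar1 1419482_at. For the probe sets that did not pass, the markers with a smaller difference were 15 for C3ar1 1419483_at, 13 for each _x_at probe set of C1qb, 12 for Serping1, 11 for C3ar1 1442082_at, 8 for Cd59a 1429830_a_at, 3 for Cfb, 2 for each probe set of C5ar1 and 0 for Cd59a 1418710_at. Against 0.39% of all genes that rose and 0.561% that fell, 3 of 12 measured monocyte and neutrophil markers rose, Lyz2 by 5.67, Cd52 by 3.52 and Plac8 by 3.31. Their summed level was 68.5 to 82.9 in reactive and 51.3 to 55.2 in non-reactive arrays, and S100a9, Ngp, Camp and Elane lay below 4.74 in both groups. Plac8 lay below 4.74 in the non-reactive arrays (mean 4.36), which leaves the size of its rise uncertain. Of 9 oligodendrocyte markers 1 rose, Ermn by 2.17. Their summed level was 86.4 to 92.2 in reactive and 73.4 to 81.6 in non-reactive arrays. No marker of neurons, oligodendrocyte progenitors, endothelium, pericytes or T cells passed. Their summed levels were 51.1 to 61.8 in reactive and 55.1 to 59.4 in non-reactive arrays for neurons, 28.8 to 31.8 in reactive and 27.7 to 29.9 in non-reactive arrays for progenitors, and 30.9 to 40.1 in reactive and 29.3 to 32.5 in non-reactive arrays for endothelium. They were 21.6 to 27.0 in reactive and 25.2 to 26.4 in non-reactive arrays for pericytes, and 19.6 to 20.1 in reactive and 18.5 to 19.5 in non-reactive arrays for T cells. The groups overlapped in each of these lists except T cells. The part of all these cells in the complement differences was not tested.

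All 11 measured astrocyte markers had means above 4.74 in both groups, the lowest being that of Sox9 in the reactive arrays (5.60). Of 11 measured, 4 fell against that 0.561% of all genes, Slc4a4, Sox9, Slc1a3 and Gja1, and Gfap rose. Aldoc, an enzyme of astrocyte glycolysis, averaged 12.67 ± 0.22 in reactive and 13.77 ± 0.47 in non-reactive arrays (SD, n = 3). The summed log2 level of the 11 was 103.5 to 107.9 in reactive and 116.6 to 120.7 in non-reactive arrays. Gfap, whose human promoter drove the reporter of the reactive mice, rose by 3.12 (limma adjusted p = 0.0492). Gja1 (0.0492), Slc1a3 (0.0475) and, of the microglia and macrophage markers, Fcer1g (0.0493) also passed close to the threshold of 0.05. The marker calls were not followed through the fits with 1 array left out. The 3′ minus 5′ signal of the control probe sets was lower in the reactive arrays for Gapdh (difference -1.02), Actb (-1.66) and Pcx (-2.02), and higher for 18S rRNA (1.98). Array medians lay between 4.65 and 4.73, and correlations between arrays were 0.901 to 0.921 within the reactive and 0.95 to 0.963 within the non-reactive group.

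**Figure D4:**
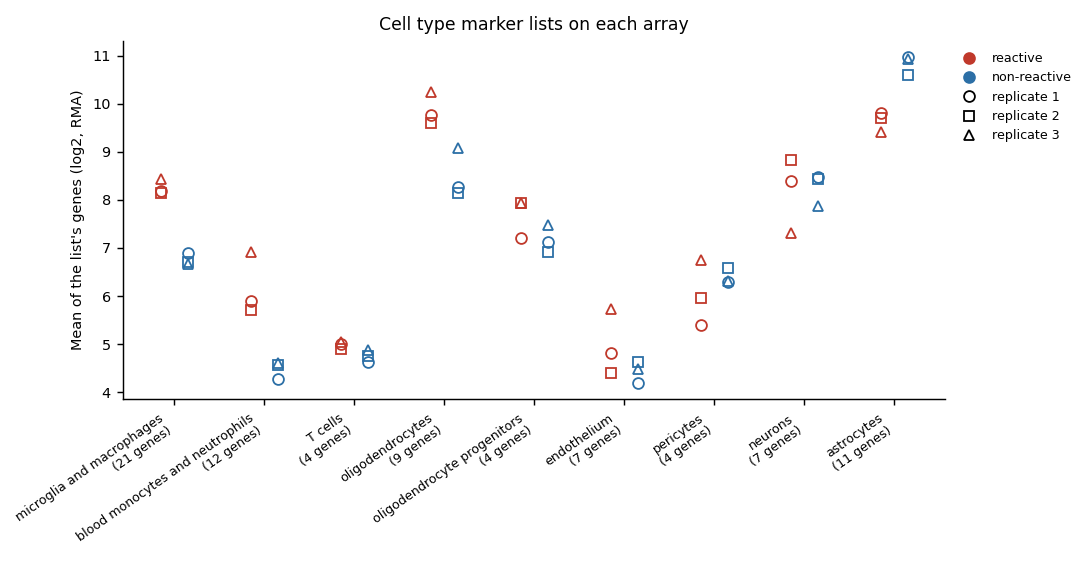
Mean log2 level of the measured genes of each cell type marker list on each array, reactive left of non-reactive. The microglia and macrophage list lies between 8.15 and 8.44 on the reactive arrays and between 6.67 and 6.89 on the non-reactive arrays, and the astrocyte list lies between 9.41 and 9.81 on the reactive and between 10.60 and 10.97 on the non-reactive arrays.

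The genes whose pattern over the 6 arrays was most like that of C1qa were Sla, Sf3b5, Gpr37, B2m and Ermn, with Pearson correlations between 0.99 and 0.993. These are the highest of 12113 genes compared, of which 134, or 1.11%, exceeded 0.95. The 6 arrays fall into the same groups for every such gene, so the correlation mostly restates the group difference and is a description without a test. Sla, an adaptor of leukocyte signalling, measured 7.37, 7.23 and 7.53 in the reactive arrays, against 5.30, 4.61 and 5.04 in the non-reactive arrays. B2m, the light chain of MHC class I, measured 11.14, 11.03 and 11.32 in the reactive arrays, against 8.53, 7.58 and 8.21 in the non-reactive arrays. In both, as in C1qa, replicate 1 was the highest of the non-reactive arrays and replicate 3 the highest of the reactive arrays. Gpr37 and Ermn, the latter from the oligodendrocyte list above, had the same highest arrays. Sf3b5 did not, as its highest reactive array was replicate 2 (10.01 beside 9.91 and 9.98).

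**Figure D5:**
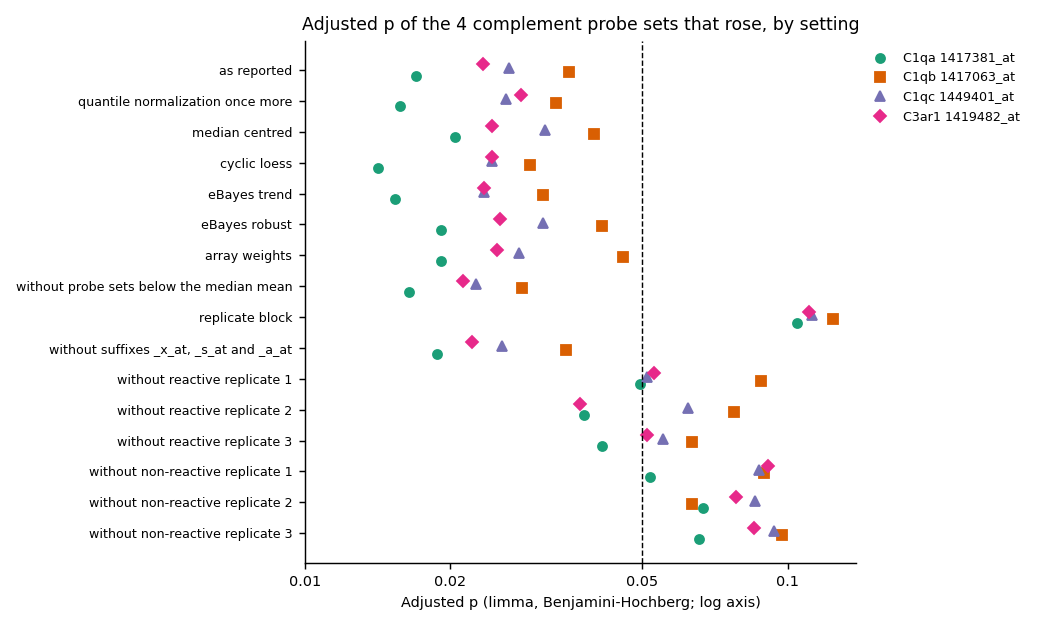
Adjusted p (limma, Benjamini-Hochberg, log axis) of the 4 complement probe sets that rose, for the comparison as reported and under 15 other settings, with the threshold of 0.05 as a dashed line. All 4 lie left of the line under the other scalings, variance models, weights and filters, and right of it without any 1 of the non-reactive arrays and with replicate numbers as blocks.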

How the data were processed

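Expression was measured on 6 arrays, 3 of reactive and 3 of non-reactive samples, grouped by the sample titles. Per the labels' protocols, RNA went through 2 rounds of amplification and was labelled with biotin. The authors deposited log2 expression values per probe set made with RMA, per the submitters' processing notes; the sources used here give no version or settings. RMA usually equalises the distributions of the arrays, which hides changes in total RNA. The number of arrays limits the precision, and no detection calls were used here.

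Of 45101 probe sets, 64 controls were left out. The platform annotation gave 1 symbol to 34945 of the other 45037, several to 932 and none to 9160. The 14 member probe sets were all found by gene identifier in RefSeq's mouse table (GRCm38.p6). For gene counts the probe set with the highest mean represented each of 18193 genes. The comparison was fitted on all probe sets in limma 3.58.1 (R 4.3.3; lmFit, eBayes; no covariates), two-sided, with Benjamini-Hochberg adjustment over all 45037 and a threshold of 0.05. Errors of differences are moderated standard errors. The labels call the arrays biological replicates, so p-values measure the spread between pools of animals. The fit was also run on simulated data with independent normal noise for each probe set. Such data hold no batch or reporter line effect, so that run says nothing about these.

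The members, gene lists, tests and alternatives were chosen with earlier results of these data known. Every member probe set was named, as was every other complement gene past the threshold. The likeness rule took the 5 highest correlations among genes at or above the median mean, for C1qa and for C4b, which had no probe set of its own. The alternatives were scaling, variance model, array weights, filters, leaving out each array in turn, replicate numbers as blocks, and averaging the probe sets per gene. No label says that a replicate number marks a shared batch, so the numbers were not taken as pairs. Deviations of same-numbered arrays from their group means correlated at -0.07, -0.11 and 0.04. With 3 arrays per group these values cannot exclude a shared batch.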

Additional observations from a re-analysis of the deposited data

How the results depend on the processing

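As reported, 4 complement probe sets, 383 of all probe sets and 1 other complement gene passed. The same 4 complement probe sets passed under the other quantile normalisation, median centring and cyclic loess. They also passed under the trend and robust variance models, array weights, the filter on low means and without the suffixes _x_at, _s_at and _a_at. In that order, 345, 314, 403, 322, 285, 324, 377 and 262 of all probe sets tested passed. The filter on low means left 22520 probe sets to test, and leaving out the suffixes left 36082. Leaving out 1 array gave 0 to 2 complement probe sets, 1 to 173 of all probe sets and each time 0 other complement genes, with 3 to 7 of 39 other complement genes and 9.24% to 14.1% of all probe sets at an unadjusted p under 0.05 in limma. The limits were 0 complement probe sets without non-reactive replicate 1, 2 or 3, where 8, 8 and 9 of the 14, and 4370, 4162 and 4919 of all probe sets, had an unadjusted p under 0.05. In the fit with a replicate block limma called 0 complement probe sets, 1 of all probe sets and 0 other complement genes, with 9 complement probe sets, 5128 of all and 5 other complement genes at an unadjusted p under 0.05. The adjusted p of C1qa, C1qb 1417063_at, C1qc and C3ar1 1419482_at under the block were 0.105, 0.124, 0.112 and 0.111. Each array left out and the block leave fewer residual degrees of freedom. Without the 3 suffixes 0 other complement genes passed, because all Clu probe sets carry 1 of them, and 2 had an unadjusted p under 0.05. Signs turned without reactive replicate 3 for C3ar1 1442082_at and C5ar1 1439902_at, which ran from -0.13 to 2.16 and from -0.085 to 0.43 with 1 array left out, and for Cd59a when its probe sets were averaged (0.21). The other signs of the 14 probe sets were kept under every alternative in which they were tested. Signals near or below the overall median of 4.74 limit C5ar1, Serping1, Cfb, Cd59a 1429830_a_at and the terminal pathway genes. They also limit all C3ar1 probe sets in the non-reactive arrays.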

Other observations

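The probe sets of several complement genes did not order the arrays alike. For C1qb, non-reactive replicate 2 gave the lowest value of that group by 1417063_at (4.71) and the highest by 1437726_x_at (9.25) and 1434366_x_at (8.37). Both _x_at probe sets differed from each other by 0.68 to 1.20 log2 units on the 6 arrays, whichever group the array belonged to. For C3ar1, reactive replicate 1 was the highest reactive array by 1419482_at (8.13) and the lowest by 1419483_at (5.05). Reactive replicate 3, which stood apart over all probe sets, was far above the other reactive arrays by C3ar1 1442082_at (7.94 beside 3.37 and 3.56) and by the second Cfp probe set (7.03 beside 3.89 and 3.78). Which probe set follows the transcript was not tested, and no positions of the probes were used here.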
